A study of Mus musculus with 15 samples.

Results

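The 67 genes described here are the replication-dependent histone genes of the mouse, taken as the protein-coding genes of GENCODE release M21 whose symbol starts with Hist1h, Hist2h, Hist3h or Hist4h, out of 55536 genes in the count table. Of these, 54 lie in the Hist1 cluster on chromosome 13, 10 in Hist2 on chromosome 3, 2 in Hist3 on chromosome 11 and 1, Hist4h4, on chromosome 6. By product there were 6 linker histone H1, 18 H2A, 18 H2B, 12 H3 and 13 H4 genes. The RNA came from CD8+ T cells of OT-I mice, which carry a transgenic T cell receptor for the ovalbumin peptide SIINFEKL, on a Rag-deficient background. These cells were transferred into C57BL/6J recipients that received the peptide. It was given with control rat IgG (Ag, n = 5) or with agonist antibodies to the costimulatory receptors CD134 (OX40) and CD137 (4-1BB) (Ag+Costim, n = 5). The transferred cells were sorted from spleen and lymph nodes by flow cytometry for CD8, their congenic CD45 marker and the Vα2 and Vβ5 chains of the transgenic receptor. The labels place both groups at day 4. Both groups thus share the transgenic receptor, the transfer and the antigen, and differ in the antibodies. The remaining labelled group, Naive, was not analysed here.

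Replication-dependent histone genes supply the core and linker histones that package newly copied DNA. Their mRNAs are made almost wholly in S phase, lack introns, and end in a short stem-loop in place of a poly(A) tail. The stem-loop is bound by SLBP and cut by a complex that includes the U7 snRNP, and the transcripts are degraded when replication stops. Activated CD8+ T cells divide fast. The libraries were primed on poly(A), so the counts describe the part of these mRNAs that such priming captured, and fewer dividing cells and less histone RNA per cell cannot be told apart in bulk samples.

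The stem-loop is shown first, because it is the 3′ end that sets these mRNAs apart. In the annotated transcripts, 50 of the 67 genes run at least 16 bases past the stop codon, and 44 of them hold a 16-base stem-loop of 6 paired bases on either side of a 4-base loop. The remaining transcripts stop too early in the annotation to show one, or hold no match. There were 6 distinct versions, with the stem in capitals and GRCm38 coordinates for 1 gene each.
Hist1h2ap, chr13:21833029-21833044, minus strand: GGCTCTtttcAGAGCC
Hist1h4d, chr13:23581950-23581965, plus strand: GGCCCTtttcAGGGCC
Hist1h3c, chr13:23745047-23745062, minus strand: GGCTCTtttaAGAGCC
Hist1h4i, chr13:22040966-22040981, minus strand: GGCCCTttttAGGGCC
Hist1h4b, chr13:23757366-23757381, plus strand: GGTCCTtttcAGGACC
Hist2h2ac, chr3:96220418-96220433, minus strand: GGCTCTttttAGAGCC
The first version was found in 26 genes of the H1, H2A, H2B and H3 classes and the second in 7 H4 genes. The other 4 versions were found in 6, 2, 2 and 1 genes. Between the stop codon and the stem-loop lay 21 to 58 bases, with a median of 31.

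A second sequence stood just before that stem-loop in the 2 genes with the highest level. It is shown because priming on poly(A) uses a run of T. In Hist1h2ao and Hist1h2ap, 2 H2A genes that encode a core histone, a run of 12 A (capitals) began at base 27 after the stop codon. It ended just before the first base of the stem-loop.
Hist1h2ap, chr13:21833037-21833064, minus strand: ccgaaaagAAAAAAAAAAAAggctcttt
Hist1h2ao, chr13:21810878-21810905, plus strand: ccgaaaagAAAAAAAAAAAAggctcttt
The longest run in Hist1h2ag, next in level per length among the H2A genes, was 4 A. The longest run of any of the 67 genes, 15 A in Hist1h2ac, began at base 857 after the stop codon. Between its stop codon and stem-loop lay 32 bases, so this run is past the stem-loop and absent from mRNAs that end there. That gene was at 26.8 CPM (counts scaled to library size) per kb of exon against 2474 for Hist1h2ap. Runs of 8 A began at base 21 in Hist1h2ae, 315 in Hist1h2bc and 1510 in Hist1h1d, at 359, 11.3 and 2.98 CPM per kb. In 15 genes the annotation holds no bases past the stop codon, so runs there could not be read. Whether priming at such runs had a part in the levels was not tested.

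The promoters gave another class-specific sequence. RefSeq promoters (GRCm38.p6, 250 bases before to 50 after the start) were present for 62 of the 67 genes. The octamer ATTTGCAT, searched on both strands, was found in 7 of 18 H2A and 6 of 16 H2B promoters and in none of the H1, H3 and H4 promoters, and in 1.75% of all 27025 promoters. Hist1h2ae and Hist1h2bg, a divergent H2A and H2B pair, share 1 copy, shown on the strand of each gene.
Hist1h2ae, chr13:23571330-23571359, minus strand: atagaggttctATGCAAATaagggactcaa
Hist1h2bg, chr13:23571330-23571359, plus strand: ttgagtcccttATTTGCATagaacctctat
CCAAT or its reverse was found in every H1, H2A, H2B and H3 promoter of the table, in 3 of 12 H4 promoters and in 37.9% of all promoters. TATAAA was found in 35 of 62 promoters of the histone genes (56.5%) against 14.2% of all.

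The libraries held 59598556 to 639070261 estimated counts on annotated genes, with Ag replicate 3 the lowest. These totals were derived from read coverage and are not numbers of reads. Ag replicates 1, 3 and 4 stood apart in genes that T cells do not use. The 1345 olfactory and vomeronasal receptor genes (Olfr and Vmn1r) summed to 228, 2294 and 114 CPM in these 3 libraries and to 25.9 to 38.4 CPM in the other 7. CPM here were scaled by trimmed mean of M values (TMM). The study describes the libraries as separate biological replicates, and the labels do not give the mice behind each. The T cell label held in every library, where the 7 markers tested (among them Cd8a and Cd3e) summed to 4161 to 8117 CPM.

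The level of the histone genes spread widely over the Ag libraries and narrowly over the Ag+Costim libraries. The 67 genes together reached 765, 6278, 2695, 674 and 7448 CPM in Ag replicates 1 to 5. In Ag+Costim replicates 1 to 5 they reached 4573, 4379, 4145, 4259 and 4394 CPM. All 5 Ag+Costim libraries lay inside the range of the Ag libraries, with replicates 1, 3 and 4 of Ag below them and replicates 2 and 5 above. The highest Ag library was 11.04 times the lowest, and the highest Ag+Costim library was 1.10 times the lowest. These factors depend on the TMM scaling. As a share of gene counts without it, the histone genes held 0.0841% to 0.615% in Ag and 0.378% to 0.425% in Ag+Costim. The means were 3572 ± 3138 CPM for Ag and 4350 ± 160 CPM for Ag+Costim (SD, 5 libraries each), a log2 ratio of 0.28. Without Ag replicate 1 or 4 this ratio was 0.028 or 0.022, and without Ag replicate 2 or 5 it was 0.59 or 0.75, so its size rested on single Ag libraries.

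**Figure D1:**
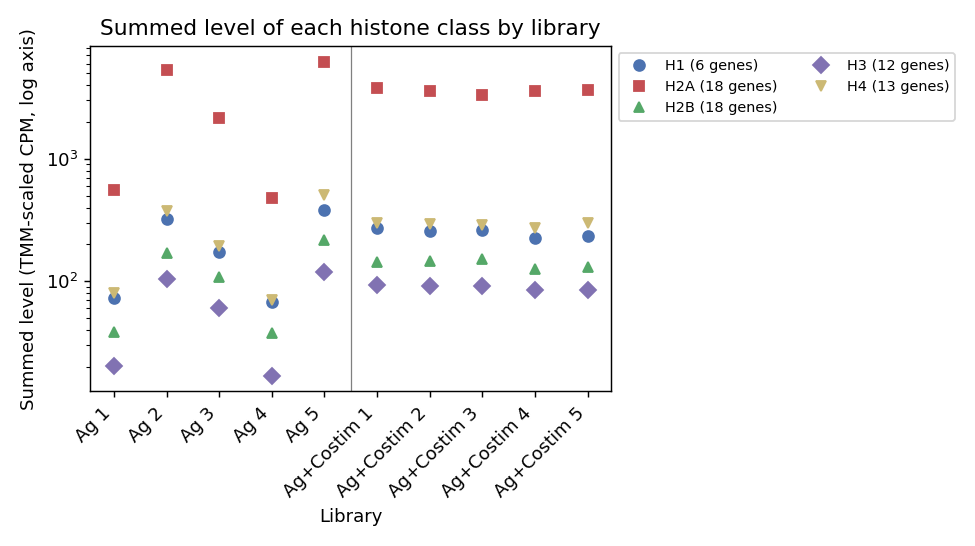
Summed level (TMM-scaled CPM, log axis) of each histone class in the 5 Ag and 5 Ag+Costim libraries, 1 point a library and class. H2A lies above the other classes in every library, and the total ranges from 674 to 7448 CPM in Ag and from 4145 to 4573 CPM in Ag+Costim.

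H2A genes took most of this level. It made up 78.4% ± 6.14 of the summed CPM in Ag (SD, n = 5) and 82.3% ± 0.996 in Ag+Costim (SD, n = 5). H4 followed with 8.16% ± 2.12 and 6.69% ± 0.230, H1 with 7.25% ± 2.34 and 5.76% ± 0.453, H2B with 4.05% ± 1.27 and 3.21% ± 0.286 and H3 with 2.13% ± 0.490 and 2.04% ± 0.103. The order of the classes by their mean shares was the same in both groups. Within Ag, the H2A share was 72.4% and 71.5% in replicates 1 and 4 and 84.5% and 83.6% in replicates 2 and 5. Hist1h2ao and Hist1h2ap alone made up 48.1% ± 4.41 in Ag and 50.03% ± 2.64 in Ag+Costim. Without them the log2 ratio of the groups was 0.31.

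Reads from near-identical genes limit how far these levels belong to single genes. All 13 H4 genes encode 1 protein and 9 of the 18 H2A genes share 1 protein. In 21 of the 67 genes, fewer than 50% of 150-base windows were unique among the annotated transcripts, and these held 73.0% of the summed CPM. Only 9.01% of the windows of Hist1h2ap and 8.46% of those of Hist1h2ao were unique. Their reads could be split among copies by the counting, so the level of 1 such gene is uncertain where that of the class is less so. Exons of 21 genes also overlap antisense exons, and reads from the 2 strands cannot be told apart without strand.

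The genes of highest level per length followed the same profile. Hist1h2ap was at 208, 1908, 773, 172 and 2356 CPM in Ag replicates 1 to 5 and at 1422, 1210, 1158, 1348 and 1372 CPM in Ag+Costim replicates 1 to 5. Hist1h2ag was at 51.0, 622.5, 253, 55.1 and 759 CPM in Ag and at 407, 578, 458, 410.4 and 411 CPM in Ag+Costim. The groups overlapped for both genes, with the Ag+Costim libraries inside the Ag range.

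Hist1h4d, an H4 gene whose windows were all unique, was at 39.4, 250.5, 110.4, 38.0 and 324 CPM in Ag and at 182, 183, 176, 171 and 188 CPM in Ag+Costim. Hist1h1b, which encodes a linker histone, was at 15.1, 119.6, 67.0, 13.1 and 164 CPM in Ag and at 136, 132, 129.7, 120.1 and 118 CPM in Ag+Costim. Hist1h3i, an H3 gene, was at 4.33, 21.6, 14.5, 2.99 and 22.1 CPM in Ag and at 22.8, 21.3, 20.8, 21.0 and 23.1 CPM in Ag+Costim. The Ag+Costim libraries lay inside the Ag range for Hist1h4d and Hist1h1b, and for Hist1h3i they lay near its top, with replicates 1 and 5 above it.

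In H2B, Hist1h2bj was the highest per length, at 4.62, 29.2, 12.2, 2.97 and 29.4 CPM in Ag and at 17.0 to 19.9 CPM in Ag+Costim. Hist1h2bg and Hist1h2bk had means of 11.2 ± 8.76 and 8.68 ± 6.61 CPM in Ag and of 15.9 ± 1.38 and 11.2 ± 0.812 CPM in Ag+Costim (SD, n = 5). Ag replicates 1 and 4 were the lowest libraries for all 3 of these genes.

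Across the genes, Ag replicates 1 and 4 were the lowest 2 of the 10 libraries for 59 of the 66 that passed the filter on low counts (89.4%), against 18.9% of all 24262 genes that passed it. Ag replicates 2 and 5 were the highest 2 for 40 of the 66 (60.6%), against 8.45% of all genes. The pair was noticed in the data, and these counts are a description. The median coefficient of variation over the 66 histone genes was 75.8% in Ag and 10.5% in Ag+Costim. Over the 8619 genes of at least 10 CPM it was 32.4% and 8.54%. That level was reached by 28 of the 67 histone genes, so the sets differ in level. The coefficient was higher in Ag for 63 of the 66.

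**Figure D2:**
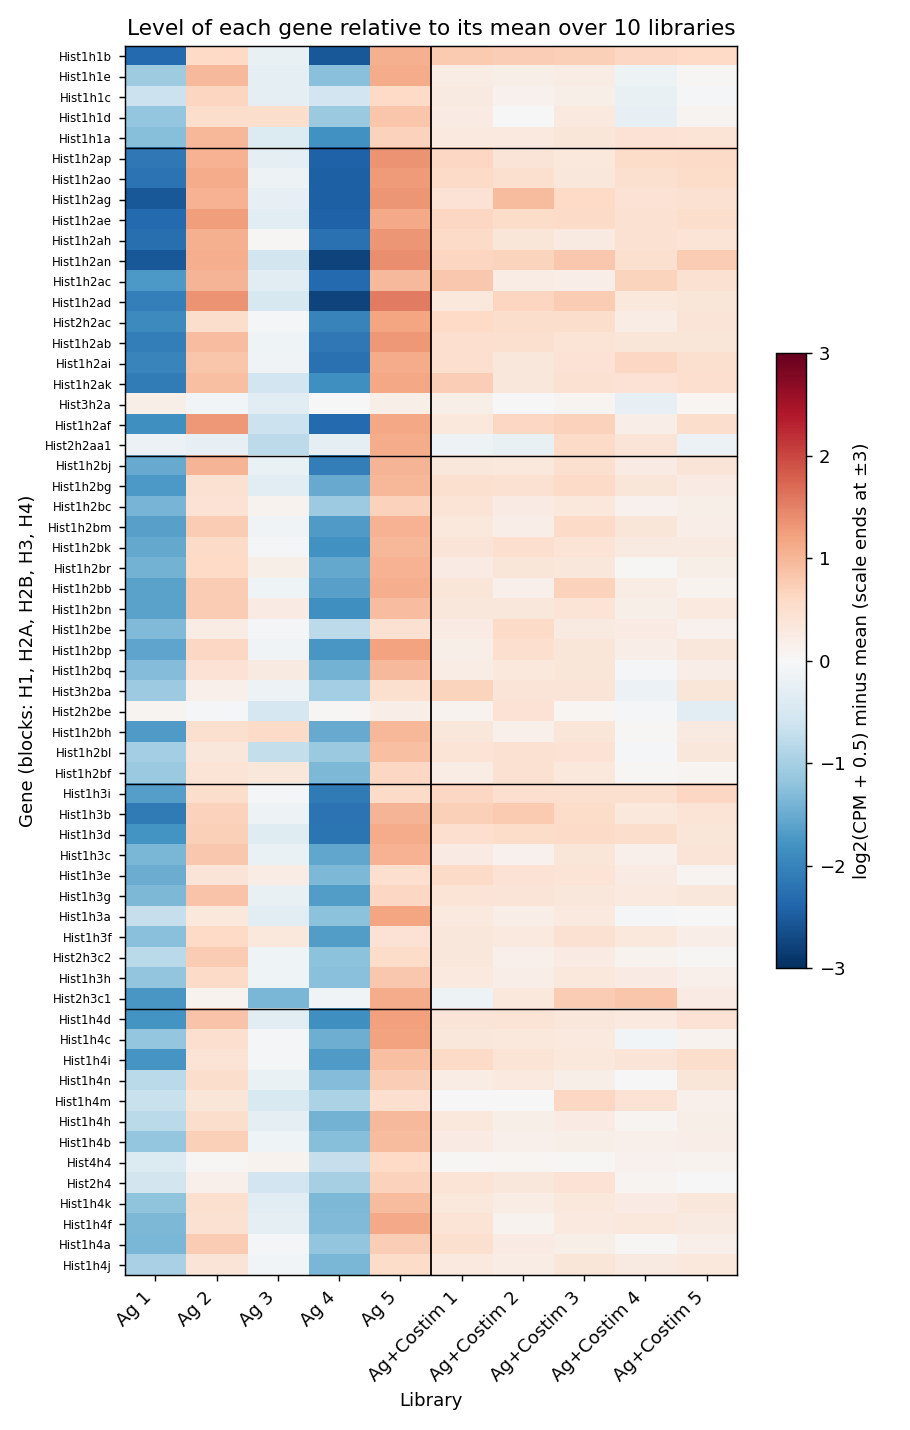
Level of each of the 60 genes with a mean of at least 1 CPM, as log2(CPM + 0.5) minus the gene's mean over the 10 libraries (colour), with libraries in columns and the classes in blocks. Ag replicates 1 and 4 are blue in most rows, while Hist3h2a and Hist2h2be are near 0 in every library.

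A few genes, singled out after their values were seen, did not follow. Hist3h2a, an H2A gene outside the large clusters, was at 14.6, 12.2, 10.2, 12.7 and 14.6 CPM in Ag and at 10.7 to 14.7 CPM in Ag+Costim. Hist2h2be, an H2B gene, was at 4.75, 4.40, 3.02, 4.59 and 5.20 CPM in Ag and at 3.52 to 6.22 CPM in Ag+Costim. Their highest Ag library was 1.43 and 1.72 times the lowest, against a median of 7.89 times over the 66 genes. Hist1h1c, a linker histone gene, came next at 2.51 times. The annotated transcript of Hist3h2a runs 1643 bases past its stem-loop. That of Hist2h2be holds no match to the stem-loop, but runs 2192 bases past its stop codon and holds AATAAA near its end. Over the 13 genes that run more than 100 bases past the stem-loop and hold the letters AATAAA there, the median of this ratio was 4.08, against 8.92 over the 22 genes whose annotation ends within 100 bases of it. The first set, which includes Hist3h2a, ranged from 1.43 to 90.0 and the second from 3.00 to 21.8, so the sets overlapped. The median was 6.77 over the 9 genes that run as far without AATAAA, 6.63 over all 22 that run that far and 7.90 over the 22 tested genes with no stem-loop in the annotation, Hist2h2be among them. Hist1h1t of the first set and Hist2h2aa2 of the second had no counts in some Ag library. They have no such ratio and are left out of every median of it given here. The sets were compared after the value of Hist3h2a was seen.

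The comparison of Ag+Costim with Ag asks whether the costimulatory antibodies changed these transcripts beyond those of antigen alone. It called none of the 66 genes (edgeR quasi-likelihood test, Benjamini-Hochberg adjusted p under 0.05), and none had an unadjusted p under 0.05. Over all 24262 genes the same test called 0 (0% called), while 8.01% were higher and 10.5% lower at an unadjusted p under 0.05. No histone gene had groups that did not overlap, against 4.53% of all genes with every Ag+Costim library higher and 1.11% with every one lower. DESeq2 also called none, where 2.57% of all genes were higher and 19.7% lower by it. The median standard error of the log2 fold change was 0.54 over the histone genes, so a change of that order was not detectable at this spread.

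The log2 fold changes lay between -1.38 and 0.75. They were above 0 for 63 of the 66 genes, with a median of 0.27. This count depended on the scaling and on single Ag libraries, with 55 of 66 by DESeq2 size factors, 53 by total counts, 46 by the upper quartile, 40 without Ag replicate 1 and 37 without Ag replicate 4. Over all 24262 genes tested 38.0% were above 0, with a median of -0.31. Over the 8619 genes of at least 10 CPM, a level that 28 of the 67 histone genes reached, 76.0% were above 0, with a median of 0.24, so the histone genes lay 0.023 above these. Scaled by total counts, by DESeq2 size factors or by the upper quartile, the same 8619 genes had medians of 0.0065, 0.12 and 0.025, and the histone genes lay 0.17, 0.082 and 0.090 above them. The highest value was that of Hist1h1b, 0.75 ± 0.60 (SE), with an adjusted p of 0.444 by edgeR. The lowest was that of Hist1h1t, a linker histone known from testis, with -1.38 ± 1.89 (SE) and an adjusted p of 0.650 by edgeR. The smallest adjusted p of any histone gene was 0.330 by edgeR, for Hist3h2ba.

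limma voom with library weights gave a different answer. It called 59 of the 66 genes higher in Ag+Costim and none lower, with a median log2 fold change of 2.00, where it called 25.8% of all genes higher and 26.3% lower. Its weights were 0.0984 and 0.0656 for Ag replicates 2 and 5, the libraries highest in the histone genes. They were 1.44, 0.504 and 1.98 for Ag replicates 1, 3 and 4. Hist1h2ap had a log2 fold change of 2.47 in this fit and 0.27 ± 0.63 (SE) in edgeR. The 7 genes it did not call included Hist3h2a, at -0.019, and Hist2h2be, at 0.039. With any 1 library left out, edgeR called none of the histone genes. Over all genes it then called 0, except without Ag replicate 5, where it called 37 of 27169. In that fit 4 histone genes had an unadjusted p under 0.05. The median log2 fold change of the histone genes was 0.54 or 0.67 without Ag replicate 2 or 5, and 0.071 or 0.041 without Ag replicate 1 or 4. The part of the weights in the calls was not tested.

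**Figure D3:**
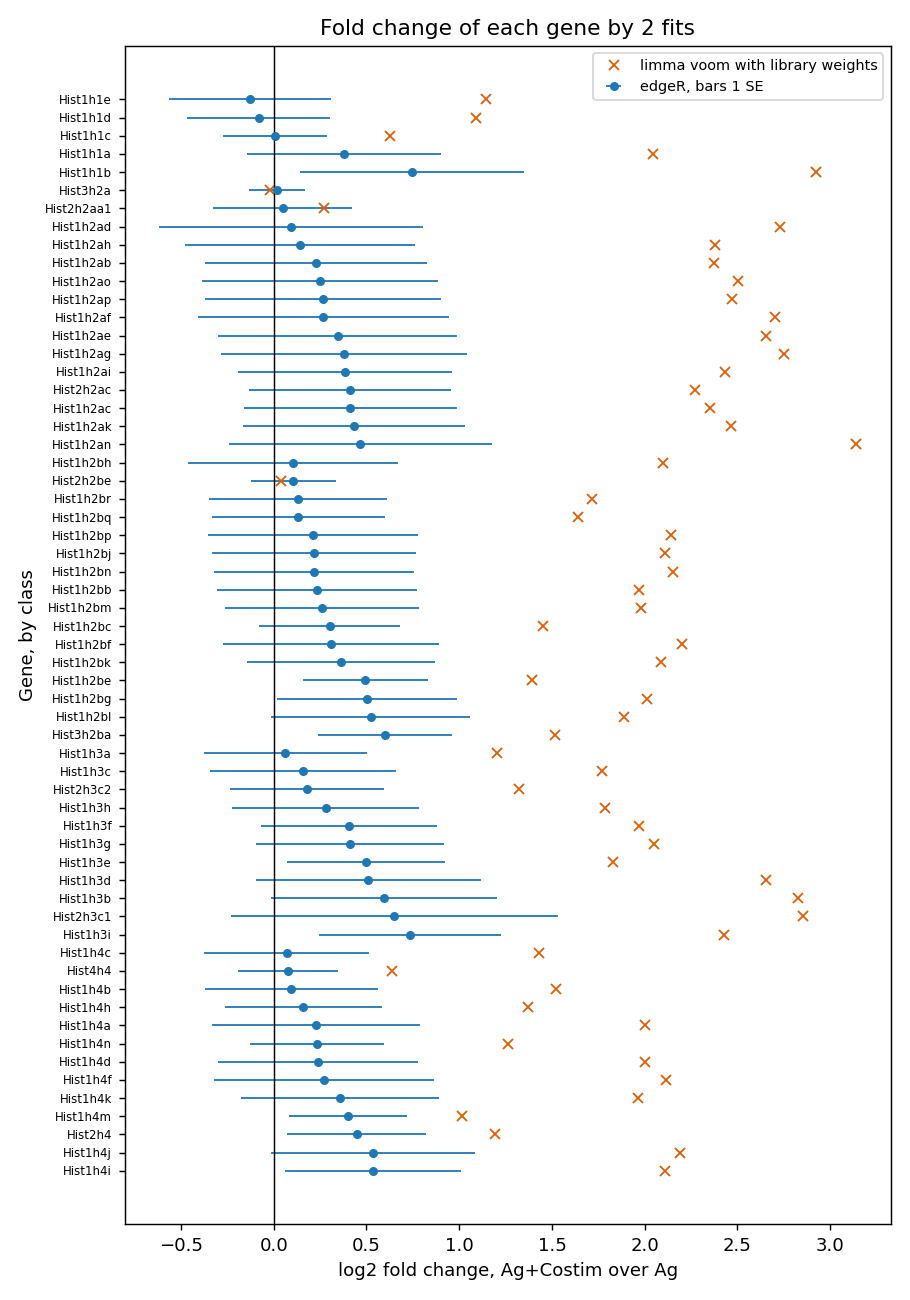
log2 fold change of Ag+Costim over Ag (horizontal axis) for the 60 genes with a mean of at least 1 CPM, by edgeR (points, bars 1 SE) and by limma voom with library weights (crosses). The edgeR values gather near their median of 0.27, and most crosses lie to the right, near their median of 2.00.

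By class, the median log2 fold change was 0.46 over the 12 H3 genes, 0.27 over the 17 tested H2A genes, 0.25 over the 18 H2B genes, 0.24 over the 13 H4 genes and -0.037 over the 6 H1 genes. Hist1h1e had a value of -0.13 ± 0.44 and Hist1h1c of 0.0059 ± 0.28 (SE). The differences between classes were not tested.

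The 7 genes under 1 CPM included the 3 known from testis. Hist1h2aa had counts in 2 libraries, at 0.013 CPM in Ag replicate 1 and 0.0024 CPM in Ag+Costim replicate 2, and was the 1 gene left out by the filter. Hist1h2ba, an H2B gene, was at 0.043 to 0.39 CPM. Hist1h1t was at 0.76 CPM in Ag replicate 3 and at 0 to 0.15 CPM in the others. Ag replicate 3 was also the library with the highest summed level of olfactory and vomeronasal receptor genes, and the part of this in the value of Hist1h1t was not tested.

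H2A and H2B genes often lie head to head and share a promoter, so their levels were compared pair by pair. There were 12 such pairs, 175 to 305 bases apart, and in 11 of them both genes passed the filter. H2A was higher than H2B per length in all 10 libraries for 10 of the 11 pairs, and in 9 libraries for Hist1h2ac and Hist1h2bc. The ratio of the mean levels had a median of 23.9. For Hist1h2ag and Hist1h2bj it was 22.6, and lay between 10.5 and 31.1 over the libraries. For Hist1h2ap and Hist1h2br it was 564, and for Hist1h2ao and Hist1h2bq 543. None of the 150-base windows of Hist1h2bq and Hist1h2br was unique, and both have spliced transcripts that add exonic length, so these 2 ratios are uncertain. The lowest was 2.09, for Hist1h2ak and Hist1h2bn.

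**Figure D4:**
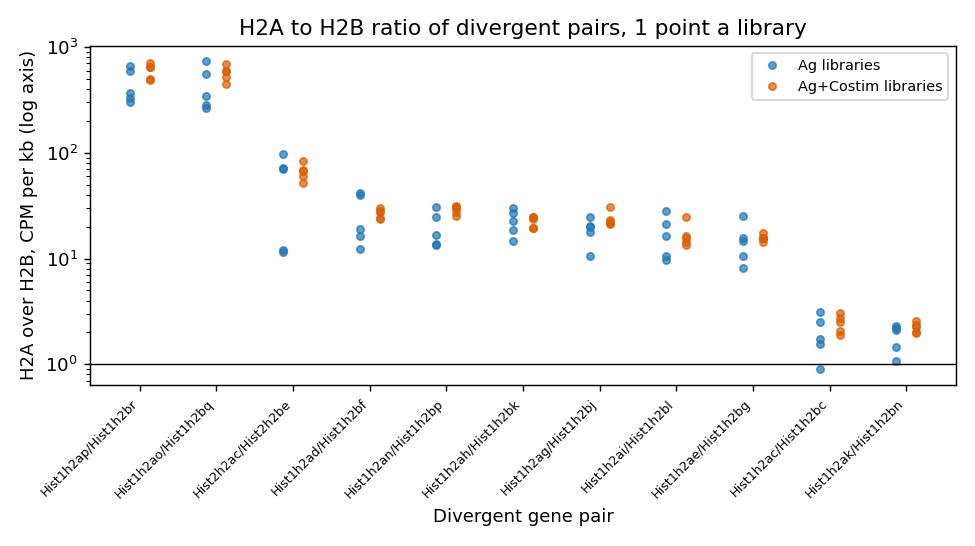
Ratio of H2A to H2B level (CPM per kb, log axis) for 11 divergent gene pairs, 1 point a library, Ag in blue and Ag+Costim in orange. All points but 1 lie above a ratio of 1, and the Ag points spread wider than the Ag+Costim points in most pairs.

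Spliced transcripts of histone genes carry a poly(A) tail in some cases, so the counts on transcripts with more than 1 exon were set apart. The annotation has 8 such transcripts in 5 H2B genes, Hist1h2bc, Hist1h2be, Hist1h2bp, Hist1h2bq and Hist1h2br. They held 1.45%, 0.544%, 1.28%, 1.30% and 0.736% of the histone counts in Ag replicates 1 to 5, and 0.808%, 0.832%, 0.885%, 0.712% and 0.740% in Ag+Costim. The means were 1.06% ± 0.396 and 0.795% ± 0.0700 (SD, n = 5), and the groups overlapped. Every annotated transcript of Hist1h2bc has more than 1 exon. Within Hist1h2be the share was 58.7% ± 20.3 in Ag and 53.1% ± 6.60 in Ag+Costim.

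Within Hist1h2bp the share was 0% in Ag replicates 2 and 4 and 64.6%, 83.1% and 68.0% in replicates 1, 3 and 5, against 60.9% to 72.1% in Ag+Costim. Transcript usage could be tested in Hist1h2be, Hist1h2bp, Hist1h2bq, Hist1h2br and Hist2h3c1, an H3 gene whose annotated transcripts have a single exon. Hist1h2bc has 1 annotated transcript and could not be tested. Usage differed in 0 of the 5 genes tested by edgeR, where 0.431% of 10441 genes were called. limma called 0 of the 5 as well, where 2.39% of genes were called, and its smallest adjusted p was 0.196, for Hist1h2bp. The authors' table of splicing events held 12 events in 4 of these genes, with 1 pooled value a group and no replicate check. An alternative acceptor of Hist1h2be had a percent spliced in, given as a fraction, of 0.901 in Ag and 0.649 in Ag+Costim.

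The genes that make and process these mRNAs were set beside them, from lists chosen with earlier results of these data known. The edgeR test called 0 of all 24262 genes, so no list could hold a gene that passed it. Of 8 genes of histone transcription, 8 of 8 had a log2 fold change above 0 and none passed the test, with a median of 0.80. Of the genes of at least 10 CPM, 76.0% were above 0, with a median of 0.24. For 3 of the 8 every Ag+Costim library was higher than every Ag library, against 4.53% of all genes tested. Npat, the coactivator of histone genes at the histone locus body, was at 21.8, 40.1, 33.5, 32.5 and 30.4 CPM in Ag and at 45.3, 54.1, 55.5, 59.2 and 59.1 CPM in Ag+Costim. Its groups did not overlap, and its log2 fold change was 0.79 ± 0.16 (SE) with an adjusted p of 0.136 by edgeR. By DESeq2, which called 2.57% of all genes higher, its adjusted p was 0.00107.

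Of 11 genes of histone mRNA processing none passed the test, as 0% of all genes did, with a median of 0.59. For 3 of the 11 the groups did not overlap, every Ag+Costim library being higher, against 4.53% of all genes tested. Slbp, which encodes the protein bound to the stem-loop, was at 133, 670, 391, 154 and 731 CPM in Ag and at 657, 675, 630.4, 839 and 711.5 CPM in Ag+Costim. The groups overlapped, with Ag replicates 1 and 4 again the lowest, and the log2 fold change was 0.76 ± 0.44 (SE, adjusted p of 0.325 by edgeR). Of 5 genes of histone mRNA decay and 20 histone chaperones and assembly factors, none passed the test, and the medians were 0.47 and 0.67. For 1 of the 5 and 4 of the 20, every Ag+Costim library was higher than every Ag library.

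The 30 genes of the S-phase list, which includes Slbp, summed to 1662, 10914, 6981, 1827 and 11937 CPM in Ag and to 11174 to 14374 CPM in Ag+Costim. As for the histone genes, Ag replicates 1 and 4 were the lowest libraries. The highest Ag library was a median of 7.23 times the lowest over these 30 genes, against 7.89 times over the histone genes. None passed the test, all 30 had a log2 fold change above 0, and the median was 0.82. For 10 of the 30 the groups did not overlap, every Ag+Costim library being higher, as in 4.53% of all genes tested. The list was chosen with earlier results known, and 76.0% of the genes of at least 10 CPM had a log2 fold change above 0.

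Many variant histones are made outside S phase as well, from genes with introns and polyadenylated mRNAs, while others of the list, such as H2afx, have no intron. H2afz, which encodes H2A.Z, was at 465, 2550, 1327, 487 and 3177 CPM in Ag and at 2067 to 2418 CPM in Ag+Costim. H3f3a, which encodes H3.3, was at 629, 983, 596, 720 and 1138 CPM in Ag and at 741 to 777 CPM in Ag+Costim. Its highest Ag library was 1.91 times the lowest, against 6.83 times for H2afz. Of the 11 variant histone genes, none passed the test, 7 had a log2 fold change above 0 and the median was 0.33. The groups overlapped for all 11.

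**Figure D5:**
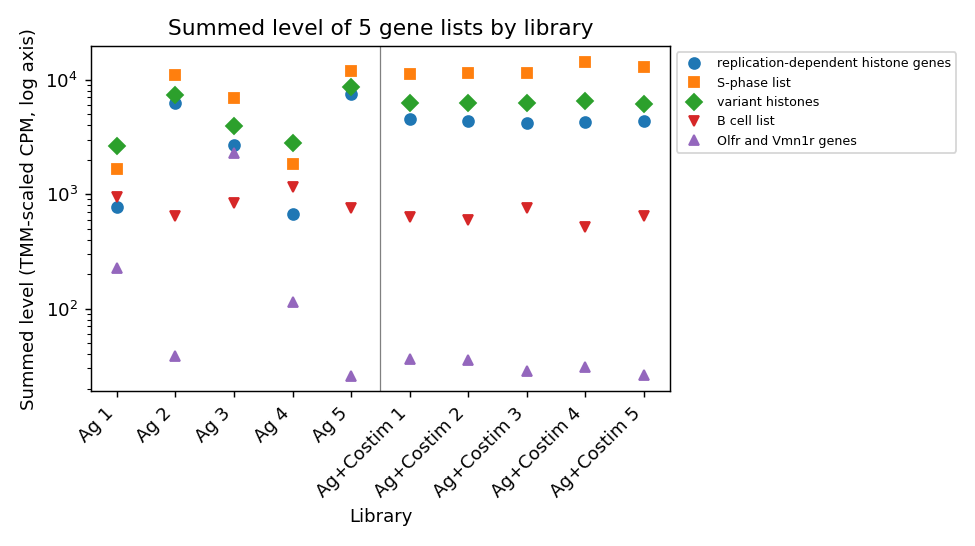
Summed level (TMM-scaled CPM, log axis) of the histone genes and 4 other gene lists in the 10 libraries. The histone, S-phase and variant histone points are lowest in Ag replicates 1 and 4, and the olfactory and vomeronasal receptor genes are highest in Ag replicates 1, 3 and 4.

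Markers of other cells also differed among the Ag libraries, but not all in the same way. The 5 B cell markers used summed to 953, 643, 837, 1144 and 754 CPM in Ag and to 513 to 759 CPM in Ag+Costim. Ighm made up most of this, at 861, 626, 592, 1037 and 733 CPM in Ag. Ms4a1 was at 17.2, 0.24, 54.0, 20.9 and 0.28 CPM in Ag and at 1.64 to 5.25 CPM in Ag+Costim, and Pax5 was at 0 in Ag replicates 2 and 5. The 7 erythroid markers summed to 126, 31.0, 1084, 43.8 and 14.7 CPM in Ag and to 3.99 to 40.4 CPM in Ag+Costim. The 7 myeloid markers summed to 38.4, 55.3, 127, 46.6 and 58.5 CPM in Ag, lowest in replicates 1 and 4. In Ag+Costim they summed to 67.1 to 158 CPM. The 2 CD4 T cell markers summed to at most 15.7 CPM. All markers used had counts in Ag replicates 1, 3 and 4, and also in Ag+Costim replicates 3, 4 and 5. The cells were sorted for CD8, congenic CD45 and both chains of the transgenic receptor. The part of other cells in the low histone levels of Ag replicates 1 and 4 was not tested.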

How the data were processed

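Poly(A) RNA was sequenced from 15 libraries (SMART-Seq v4, paired reads), and the 10 with count columns, 5 Ag and 5 Ag+Costim, were used. Per the labels and the study's methods, the authors used HISAT2 2.1.0 on mm10, SAMtools 1.9 for sorting and StringTie 2.1.0 for counting genes and transcripts. What they deposited is an estimated count per gene or transcript, a whole number from coverage, without normalization. The deposited splicing table gives percent spliced in as a fraction, 1 pooled value a group. Its difference and probability columns hold the authors' comparison and were not used. Totals were 59598556 to 639070261 counts, which come from coverage and are not numbers of reads, so the count models treat estimated counts as if they were reads. Entries without a gene identifier (0.0458% to 0.308% of a library) were left out.

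Counts were tested with edgeR 4.0.16 (robust quasi-likelihood test, filterByExpr, TMM), with Benjamini-Hochberg adjustment over 24262 genes. DESeq2 1.42.0, limma 3.58.1 (voom with library weights), other scalings, no filter, a replicate block and leaving out each library were alternatives. Transcript usage was tested with edgeR and limma. CPM per kb used the union of exons. Sequences came from GENCODE M21 transcripts and RefSeq promoters.

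The genes and lists were chosen with earlier results of these data known. Named genes were the 3 highest per length in each class, those without overlap at 1 CPM or more, 3 testis genes, those with the most multi-exon counts, the extremes of fold change and the genes of the transcription, processing and variant lists. Genes outside this rule were named after their values were seen. 1 marker gene of the lists is not reported here.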

Additional observations from a re-analysis of the deposited data

Results flagged for a closer look

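Among 62 sets of 5 libraries screened, 2 held a library far from the others, where chance gives about 1 in 20. Hist1h1t was at 0.762 CPM in Ag replicate 3, with the next Ag library at 0.022 CPM. Hist1h2be was at 10.5 CPM in Ag+Costim replicate 2, with the next library of that group at 8.35 CPM.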

How the results depend on the processing

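No histone gene was called under 16 of the 17 alternatives, and limma voom with library weights called 59. Without the filter, 6 of the 67 histone genes had an unadjusted p under 0.05 by edgeR, and 0 of 54224 genes were called. The counts of genes without overlap were 0 under every scaling and with any 1 library left out. The summed log2 ratio was 0.14 to 0.22 under other scalings and 0.022 to 0.75 with 1 library left out. The difference in the share on multi-exon transcripts, -0.27 percentage points, was -0.40 to -0.17 with 1 library left out and 2.58 as the mean of the shares within each of the 4 genes that also have a single-exon transcript (Hist1h2bc, at 100% throughout, was left out). Of these, Hist1h2bp had a difference of 23.6, and Hist1h2be, Hist1h2bq and Hist1h2br had -5.51, -3.80 and -3.98.

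Deviations from the group mean had correlations of -0.41 to 0.21 between same-numbered libraries, against -0.51 to 0.44 between differently numbered ones. This check did not show pairing by number, and it cannot show that there was none. With the replicate block, 0 histone genes were called and the median log2 fold change was 0.75.

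Values of single genes turned sign in 51 of 408 cases, and the cause was not tested. By limma voom, Hist1h1e was at 1.14 and Hist1h1t at 2.53. Without the filter they were at 0.18 and 0.048, and with the replicate block at 0.21 and 3.52. Hist1h1c was at -0.095 by DESeq2 and by its size factors (-0.0952), -0.17 by total counts and -0.19 by the upper quartile. Hist1h4c was at -0.015, -0.013 (size factors), -0.039 and -0.11 in that order, and Hist1h2ba at -0.068, -0.056, -0.097 and -0.15. By the upper quartile Hist1h3c was at -0.0037, Hist1h2br at -0.044 and Hist1h2bq at -0.050. With 1 library left out the range was -0.34 to 0.23 for Hist1h1e, -0.13 to 0.22 for Hist1h1c, -0.0063 to 0.77 for Hist1h2ap, -0.024 to 0.70 for Hist1h2ao, -0.045 to 0.58 for Hist1h2bj, -0.082 to 0.56 for Hist1h3c, -0.0050 to 0.72 for Hist1h4d, -0.15 to 0.56 for Hist1h4c, -2.11 to 3.30 for Hist1h1t, -0.24 to 0.35 for Hist1h2ba, -0.10 to 0.54 for Hist1h2br, -0.094 to 0.53 for Hist1h2bq and -0.042 to 0.75 for Hist1h2bp.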

Other observations

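Of 3 further Hist genes that the annotation types as pseudogenes, Hist1h2aj had counts of the order of the H2A genes, at 43.2, 269, 116, 29.2 and 402.5 CPM in Ag and at 194 to 213 CPM in Ag+Costim. Hist3h2bb-ps was at 0.32 to 1.36 CPM and Hist1h2al at 0.022 to 0.17 CPM. Reads of near-identical H2A genes could be split with Hist1h2aj.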
